A study of Mus musculus with 5 samples.

Results

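The genes examined here are the core machinery of MHC class I antigen presentation in the mouse. The 10 genes were chosen by name for their known function: the classical heavy chains H2-K1 and H2-D1, the light chain B2m, the peptide transporter subunits Tap1 and Tap2, the loading factor Tapbp, the immunoproteasome subunits Psmb8, Psmb9 and Psmb10, and the transcriptional regulator Nlrc5. All 10 were among the 55573 genes of the count table and among the 15191 genes tested. RNA-seq of polyadenylated RNA was carried out in N2A (Neuro-2A) cells, 1 established mouse neuroblastoma line, to find the transcripts whose level depends on UPF1, an RNA helicase required for nonsense-mediated mRNA decay (NMD). Cells received 60 pmol of siRNA with the same transfection reagent, either Silencer Negative Control #1 (siCtl, 2 libraries, replicates 1 and 3) or an siRNA against Upf1 (siUpf1, 3 libraries, replicates 1, 2 and 3). No interferon was named among the treatments of either group.

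A class I molecule is a polymorphic heavy chain paired with β2-microglobulin, the product of B2m, around a short peptide. The peptide is cut from cytosolic proteins by the proteasome, whose standard catalytic subunits can be replaced by the inducible immunoproteasome subunits. It is carried into the endoplasmic reticulum (ER) by the TAP1–TAP2 transporter and is loaded with the help of tapasin, the product of Tapbp. Interferon raises these genes together, and NLRC5 acts with the RFX and NF-Y factors at a conserved promoter module of class I genes, whose boxes are named S, X and Y. Neurons are known for low levels of class I molecules.

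The knockdown was checked first. Upf1 stood at 5230 ± 18.1 normalised read counts (mean ± SD, as everywhere below) in the 2 siCtl libraries and at 2449 ± 46.6 in the 3 siUpf1 libraries, so that 46.8% of the siCtl level remained. The libraries held 20402205 to 27717594 assigned counts. Of 13 tested markers of neuroblastoma and sympathoadrenal cells, 8 were higher and 2 lower in siUpf1. DESeq2 called 44.9% of all 15191 tested genes, with 3341 higher and 3481 (22.9%) lower. The summed level of the neuroblastoma and sympathoadrenal markers was 1960 to 1990 CPM (counts scaled to the library's total) in siCtl and 2210 to 2320 in siUpf1. Leukocyte markers summed to 1.78 to 1.99 CPM in siCtl and 1.95 to 2.21 in siUpf1, with 0 of 2 tested genes called by DESeq2, and Ptprc had between 0 and 5 counts. Fibroblast and endothelial markers summed to 20.4 to 20.5 CPM in siCtl and 13.9 to 16.1 in siUpf1, and Col3a1 was at 0 throughout. Of the 5 tested, 2 were lower (Pecam1 and Pdgfra), beside 22.9% of all tested genes. The part of these marker shifts in the results below was not tested, and in bulk RNA fewer cells of a kind and less RNA per cell cannot be told apart.

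Most of the class I genes were lower in siUpf1. DESeq2's Wald test (adjusted p under 0.05, the threshold for a call throughout) called 7 of the 10 lower and 0 higher: H2-K1, H2-D1, Tap2, Tapbp, Psmb8, Psmb10 and Nlrc5. Of all tested genes, 44.9% were called, with 22.9% lower. B2m, Tap1 and Psmb9 were not called. In 9 of the 10 genes, Psmb9 being the exception, every siUpf1 library was below both siCtl libraries, a pattern found in 35.2% of all tested genes. The median log2 fold change (siUpf1 over siCtl) of the 10 genes was -0.74, beside -0.0024 for all tested genes. A log2 fold change of -0.5 or less was found in 7 of the 10 genes and in 12.0% of all tested genes. edgeR's quasi-likelihood test added Tap1 and Psmb9 to the genes called lower, giving 9, where edgeR called 27.1% of all its tested genes lower. The study describes independent repeats for the immunoblots of this knockdown, but neither it nor the labels say which culture each library came from, so p-values measure the spread between these libraries.

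**Figure D1:**
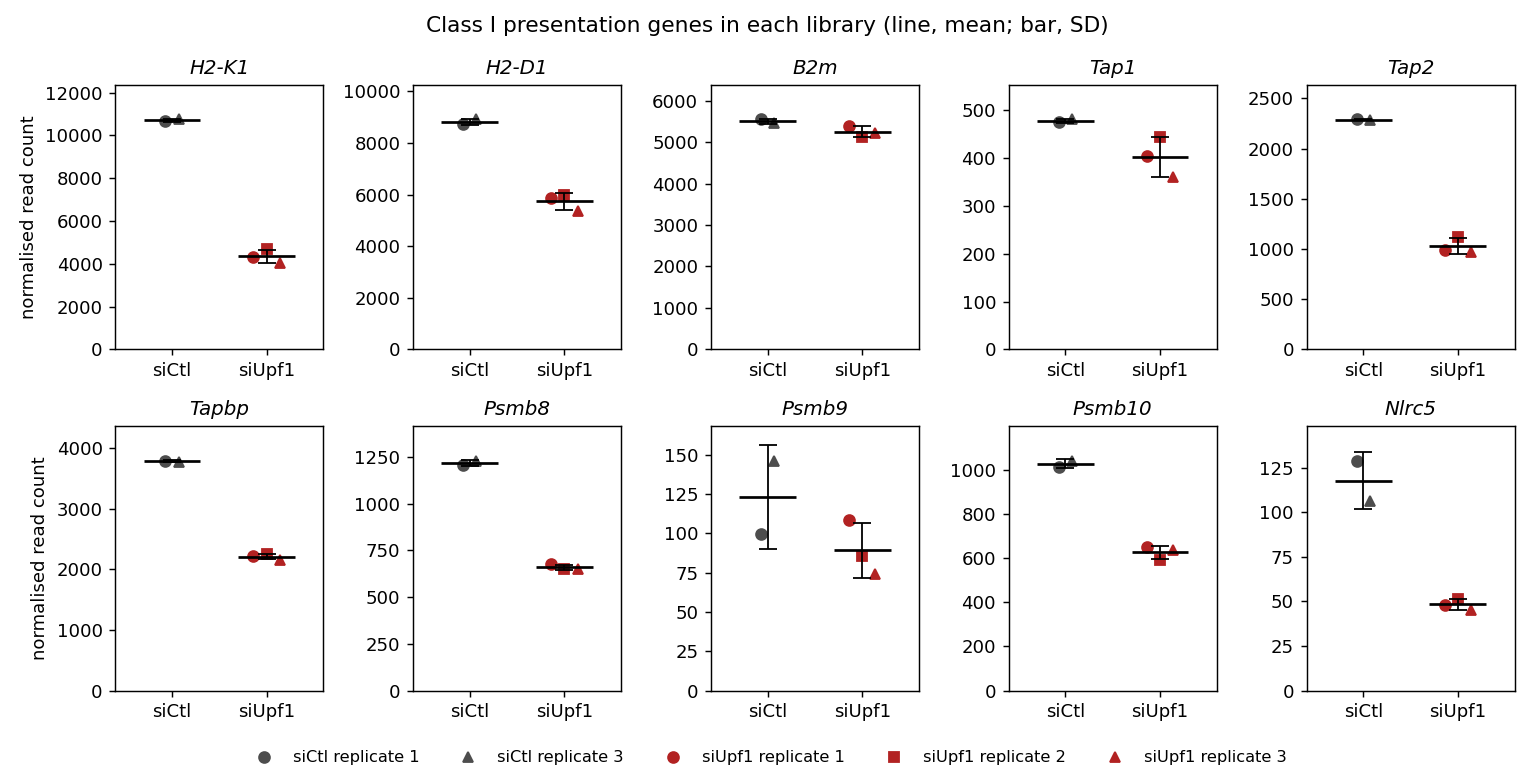
Normalised read count (y axis, linear from 0) of each of the 10 genes in the siCtl (grey) and siUpf1 (red) libraries. Each point is a library, its shape gives the replicate number, the line is the group mean and the bar the SD. The siUpf1 points lie below both siCtl points in 9 panels and overlap them for Psmb9.

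**Figure D2:**
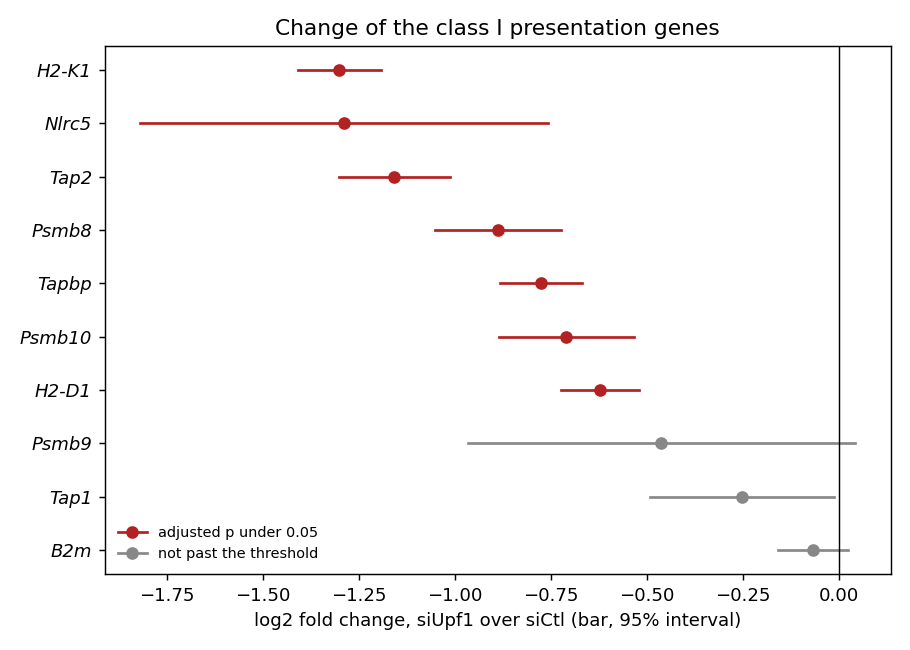
Log2 fold change of siUpf1 over siCtl (x axis) for the 10 genes, with the 95% interval from DESeq2's standard error. The 7 genes in red passed the threshold and lie between -1.30 and -0.62, and the 3 in grey (Psmb9, Tap1 and B2m) did not pass.

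The promoters of the heavy chains and of B2m are shown because they carry the module through which NLRC5 and the RFX and NF-Y factors are known to act. Capitals mark TGACG, the core of the X2 box, and ATTGG, the reverse complement of the CCAAT core of the Y box. The first base of ATTGG lies 25 bases after the first base of TGACG. Sequences are from RefSeq (GRCm38.p6), written 5′ to 3′ on the strand of the gene. They lie at chr17:34000354-34000403 (minus strand) for H2-K1, chr17:35262978-35263027 (plus strand) for H2-D1 and chr2:122147594-122147643 (plus strand) for B2m.
H2-K1: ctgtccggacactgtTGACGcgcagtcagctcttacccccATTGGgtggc
H2-D1: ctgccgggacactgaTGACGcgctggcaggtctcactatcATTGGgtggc
B2m: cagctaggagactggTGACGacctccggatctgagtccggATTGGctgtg
This spacing was chosen after the matches had been seen, and it was present in 31 of 32851 promoters of the table (0.094%). Among the 10710 tested genes with a promoter in the table, 22 held it, of which 7 were lower and 4 higher in siUpf1. The 31 promoters and the 22 genes both include H2-K1, H2-D1 and B2m, from which the spacing was taken. H2-K1 and H2-D1 are thus among the 7 lower genes. Of all tested genes, 44.9% were called and 22.9% were lower. The 3 genes shown share the arrangement, yet H2-K1 and H2-D1 were lower in siUpf1 while B2m did not pass the test.

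H2-K1 fell by the largest amount of the 10 genes in the fit to all 5 libraries, although the wide interval of Nlrc5 covered its value. H2-K1 encodes a classical heavy chain and lies on chromosome 17 (ENSMUSG00000061232.16, 33996017 to 34000347, minus strand, GRCm38). It had 10653 and 10748 normalised counts in siCtl replicates 1 and 3, and 4321, 4678 and 4044 in siUpf1 replicates 1, 2 and 3. The siCtl libraries were nearly equal and the highest siUpf1 library stood far below them. The group means were 10700.4 ± 66.7 and 4348 ± 317, and the log2 fold change was -1.30 (SE 0.055, DESeq2 adjusted p = 1.6e-120), which left 40.6% of the siCtl level (95% interval 37.7% to 43.7%).

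H2-D1, the other classical heavy chain of the reference strain (ENSMUSG00000073411.11, chromosome 17, 35262730 to 35267499, plus strand), fell less. Its normalised counts were 8736 and 8909.8 in siCtl and 5864, 5987 and 5363 in siUpf1. The groups were again well separated. On the log2 scale the change was -0.62 (SE 0.052, DESeq2 adjusted p = 7.79e-32), so that 65.0% of the siCtl level remained. The count of H2-K1 relative to H2-D1 was lower in siUpf1. There were 1.22 and 1.21 H2-K1 counts per H2-D1 count in siCtl, and 0.737, 0.781 and 0.754 in siUpf1. The ratio does not depend on the scaling of libraries, and the groups did not overlap. An exact permutation test of 2 libraries against 3 cannot give a p-value under 0.1, so ratios within libraries are given with no test.

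B2m, the light chain shared by all class I molecules (ENSMUSG00000060802.8, chromosome 2, 122147686 to 122153083), stayed near its siCtl level. Its normalised counts were 5545 and 5453 in siCtl and 5386, 5127 and 5220.1 in siUpf1. All siUpf1 libraries were lower, but by a margin close to the spread within groups. The log2 fold change was -0.07 (SE 0.047, DESeq2 adjusted p = 0.245), with a 95% interval from -0.16 to 0.02. The siUpf1 level was 95.4% of siCtl, and the interval did not reach below 89.6%. There were 1.92 and 1.97 H2-K1 counts per B2m count in siCtl, and 0.802, 0.912 and 0.775 in siUpf1.

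The 3′ UTRs of the heavy chains were examined for the seed matches of the Upf1 siRNA, since an siRNA can act on other transcripts through its bases 2 to 8. The labelled strand is shown with these bases in capitals. It has the same letters as Upf1 mRNA and is therefore the sense strand.
Upf1 siRNA: uCAAGGUUccugauaauua
The 7-mer complementary to these bases, AACCTTG, occurred at 2 sites in the representative 3′ UTR of H2-K1 and at 1 in that of H2-D1 (GENCODE M21 transcripts). Capitals mark the 7-mer.
H2-K1, position 202 of 419: ttccacagccAACCTTGctggttcagc
H2-K1, position 310 of 419: atttgaatgtAACCTTGattgttatca
H2-D1, position 201 of 629: ttccatagccAACCTTGctgctccagc
None of the other 8 genes held this 7-mer in its 3′ UTR. None of the 10 held GATAATT, the 7-mer for the antisense strand, which is the strand meant to guide cleavage of Upf1. The sense-strand 7-mer was present in the 3′ UTR of 9.76% of 12736 tested genes with a coding transcript. Of the genes with it, 37.2% were called lower, beside 25.4% of the genes without it. For the antisense 7-mer these shares were 27.4% and 26.5%. The part of such sites in the levels of H2-K1 and H2-D1 was not tested.

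Heavy chain genes other than H2-K1 and H2-D1 mostly moved in the same direction. Of 25 further heavy chain genes looked for, 19 were in the table and 14 were tested. Beside 22.9% of all tested genes, 9 of these 14 were lower and 0 higher (median log2 fold change -0.75). The 3 lowest were H2-Q1, H2-T3 and H2-Q6. H2-Q1 fell from 146 and 159 normalised counts in siCtl to 30.2, 37.7 and 37.4 in siUpf1, a log2 fold change of -2.13 with an SE of 0.271 (DESeq2 adjusted p = 5.73e-14). H2-T3 rested on few reads, with 13.6 and 20.8 normalised counts in siCtl and 2.67, 8.79 and 3.57 in siUpf1 (DESeq2 adjusted p = 0.0439). The least lowered of the called genes were H2-T23, H2-T10 and H2-K2. H2-T23 encodes Qa-1, a non-classical molecule recognised by natural killer cell receptors. It had 590.2 and 555 normalised counts in siCtl and 368, 424 and 392 in siUpf1 (log2 fold change -0.54, SE 0.115, DESeq2 adjusted p = 1.31e-05). When either siCtl library was left out, 5 of the 14 were called in place of 9, and with the replicate block 7. The call of H2-T10 was lost without siCtl replicate 3, that of H2-T22 without siCtl replicate 1, and that of H2-T3 without a filter on low counts. H2-Q6 had no adjusted p with the block or without either siCtl library, and H2-T3 had one in only 4 of 11 alternatives. No siCtl library has the number 2, so siUpf1 replicate 2 adds nothing to the comparison of groups under the block.

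For H2-Q4 and H2-Q5 siUpf1 replicate 2 stood apart from the other siUpf1 libraries, which it did not for H2-Q1 or H2-Q6. H2-Q4 had 872 and 914 normalised counts in siCtl, 513 and 523 in siUpf1 replicates 1 and 3, and 249 in replicate 2 (DESeq2 adjusted p = 0.0303). Its call was lost when either siCtl library or the filter on low counts was left out. H2-Q5 had 68.1 and 65.1 normalised counts in siCtl and 60.5, 26.4 and 57.9 in siUpf1, and was not called. H2-K1 and H2-D1 showed no such gap, since replicate 2 held the highest siUpf1 value of both.

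Near-identical heavy chains can lose or exchange reads in gene counting. Of all 100-nt windows of its representative transcript, H2-K1 shared 0 with another gene and H2-D1 shared 4.64%, beside 21.9% for H2-Q7, 14.2% for H2-T22 and 13.1% for H2-Q1. The value for H2-K1 covers that transcript alone, since windows of H2-Q5 recurred in other annotated transcripts of H2-K1. When the counts of all 19 heavy chain genes with a read were summed into 1 row, the sum was lower by -0.94 on the log2 scale (SE 0.045, DESeq2 adjusted p = 2.08e-94). N2A cells derive from a mouse of strain A, whereas the reference genome is that of C57BL/6J, and heavy chain alleles differ between these strains. How much of each gene's reads was lost for this reason was not tested.

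**Figure D3:**
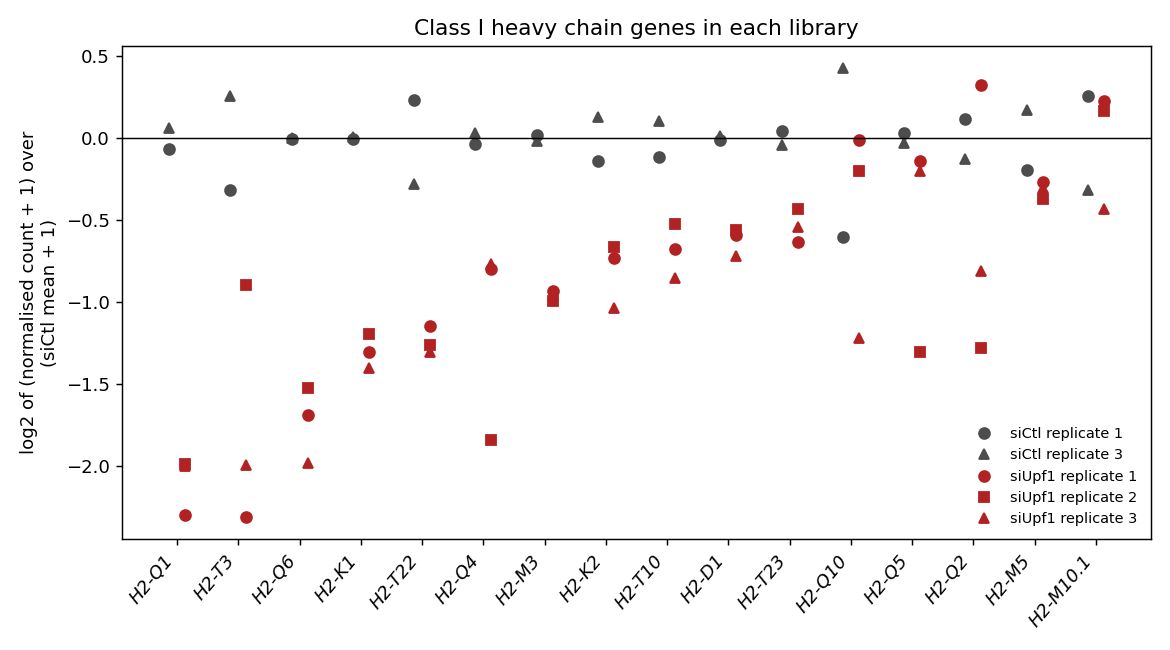
Log2 of the normalised read count plus 1 in each library over the siCtl mean plus 1 (y axis) for the 16 tested class I heavy chain genes, in the order of their log2 fold change. Points are libraries, siCtl grey and siUpf1 red, with the replicate number as the shape. The siUpf1 points of H2-K1 and H2-D1 lie close together, and replicate 2 (square) lies far below the other siUpf1 libraries for H2-Q4 and H2-Q5.

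The immunoproteasome subunits replace the standard catalytic subunits and favour peptides that bind class I molecules. Of them, Psmb8 and Psmb10 were called lower and Psmb9 was not called. Psmb8, which takes the place of Psmb5 (ENSMUSG00000024338.15, chromosome 17, 34197721 to 34201454), had 1208 and 1229 normalised counts in siCtl and 676, 650.1 and 649 in siUpf1. Its log2 fold change was -0.89 (SE 0.084, DESeq2 adjusted p = 1.08e-24), and 54.1% of the siCtl level remained. Each group was narrow and the gap between them was many times their spread.

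Psmb10, which takes the place of Psmb7 and lies outside the MHC (ENSMUSG00000031897.9, chromosome 8, 105935735 to 105938444), had 1013 and 1042 normalised counts in siCtl and 649, 592 and 639 in siUpf1. Its log2 fold change was -0.71 (SE 0.09, DESeq2 adjusted p = 3.33e-14), with no overlap of the groups. Psmb9, which takes the place of Psmb6 (ENSMUSG00000096727.3, chromosome 17, 34181987 to 34187764), had few reads, with 99.6 and 146 normalised counts in siCtl and 109, 85.3 and 74.0 in siUpf1. Here siUpf1 replicate 1 was above siCtl replicate 1. The log2 fold change was -0.46 (SE 0.257, DESeq2 adjusted p = 0.136; 95% interval -0.97 to 0.04), so that a decrease like that of Psmb8 lay within its interval. The Psmb9 adjusted p was 0.0492 with edgeR and between 0.0492 and 0.784 over all alternatives.

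The standard catalytic subunits moved less. Psmb6 (log2 fold change -0.29, DESeq2 adjusted p = 1.51e-06) and Psmb7 (-0.17, DESeq2 adjusted p = 0.000676) were lower, and Psmb5 was not called (-0.05, DESeq2 adjusted p = 0.653). With the replicate number as a block, Psmb7 was no longer called. Within libraries there were 1.20 and 1.18 Psmb8 counts per Psmb5 count in siCtl and 0.703, 0.618 and 0.679 in siUpf1, a mean difference of -0.84 on the log2 scale with no overlap. Psmb10 counts per Psmb7 count were 0.190 and 0.198 in siCtl and 0.139, 0.124 and 0.138 in siUpf1, a difference of -0.54 with no overlap. For Psmb9 over Psmb6 the groups overlapped and the difference was -0.16, which turned to 0.09 without siCtl replicate 3. Psmb5 shared 24.9% of its 100-nt windows with other annotated genes, so its counts are less certain than those of Psmb6 and Psmb7, which shared 0.

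Beside 22.9% of all tested genes, the remaining subunits of the 20S core were all lower, by smaller amounts. Of 11 tested, 11 were called lower (median log2 fold change -0.31), from Psma6 at -0.53, Psma5 at -0.42 and Psma2 at -0.34 to Psma7 at -0.22, Psma1 at -0.21 and Psma3 at -0.15. With the replicate number as a block, Psma1 and Psma3 were no longer called, and Psma3 was also lost with scaling to total counts and when any library but siUpf1 replicate 1 was left out. Among proteasome activators and assembly factors, 4 of 10 were lower (22.9% of all tested genes were) and 0 higher. These were both subunits of the interferon-inducible PA28 activator, Psme2 (-0.91, SE 0.068, DESeq2 adjusted p = 1.11e-38) and Psme1 (-0.76, SE 0.067, DESeq2 adjusted p = 2.74e-28), and the assembly factors Pomp (-0.47) and Psmg2 (-0.28), the latter not called with the replicate block. Psme3, a related activator that interferon does not induce, was not called (-0.02, DESeq2 adjusted p = 0.752).

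The subunits of the peptide transporter behaved unequally. Tap2 (ENSMUSG00000024339.12, chromosome 17, 34203527 to 34216321) had 2290.4 and 2284 normalised counts in siCtl and 993, 1121 and 972 in siUpf1. Its log2 fold change was -1.16 (SE 0.074, DESeq2 adjusted p = 1.27e-52), which left 44.8% of the siCtl level. The siCtl values were almost the same, and every siUpf1 library was far below both.

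Tap1 (ENSMUSG00000037321.17, chromosome 17, 34187553 to 34197225) had 475 and 480.2 normalised counts in siCtl and 404, 443 and 360.1 in siUpf1. The groups did not overlap, but siUpf1 libraries spread widely below siCtl. The log2 fold change was -0.25 (SE 0.123, 95% interval -0.49 to -0.01), with an adjusted p of 0.0816 from DESeq2 and 0.0208 from edgeR, and 0.0208 to 0.359 over all alternatives. There were 4.82 and 4.76 Tap2 counts per Tap1 count in siCtl, and 2.46, 2.53 and 2.70 in siUpf1, with no overlap. Tap1 and Psmb9, neither of them called, are neighbours that are read in opposite directions from a shared start region. Their exons overlapped by 212 bases, and counting was by strand.

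Tapbp, whose product tapasin bridges the transporter and the empty class I molecule (ENSMUSG00000024308.15, chromosome 17, 33915899 to 33929292), had 3796 and 3779 normalised counts in siCtl. In siUpf1 it had 2229, 2248 and 2159. These values were tight in both groups, and the log2 fold change was -0.78 (SE 0.054, DESeq2 adjusted p = 1.33e-44), which left 58.4% of the siCtl level. While 44.9% of all tested genes were called and 22.9% were lower, ER peptide loading and trimming had 13 tested genes. Of these, 5 were lower and 1 higher (median log2 fold change -0.08). The largest change was in Erap1, the ER aminopeptidase that trims peptides to the length class I molecules bind, which had 1472 ± 22.4 normalised counts in siCtl and 789 ± 70.6 in siUpf1, a log2 fold change of -0.90 with an SE of 0.086 (DESeq2 adjusted p = 5.3e-24). Blmh, a cytosolic aminopeptidase, was lower by -0.46. The ER chaperones Hspa5 (-0.17) and Calr (-0.10) and the peptidase Npepps (-0.13) were lower by small amounts, and Sec61a1, a subunit of the ER translocon, was higher by 0.21. Of these, the calls of Hspa5, Calr, Npepps and Sec61a1 were lost with the replicate number as a block. Npepps was also lost with scaling to total counts, without either siCtl library and without siUpf1 replicate 2 or 3. Calr was called in 2 of 11 alternatives, TMM scaling and without siUpf1 replicate 2. Tapbpl, a relative of Tapbp, had a log2 fold change of -0.46 and was not called by DESeq2 (adjusted p = 0.126).

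**Figure D4:**
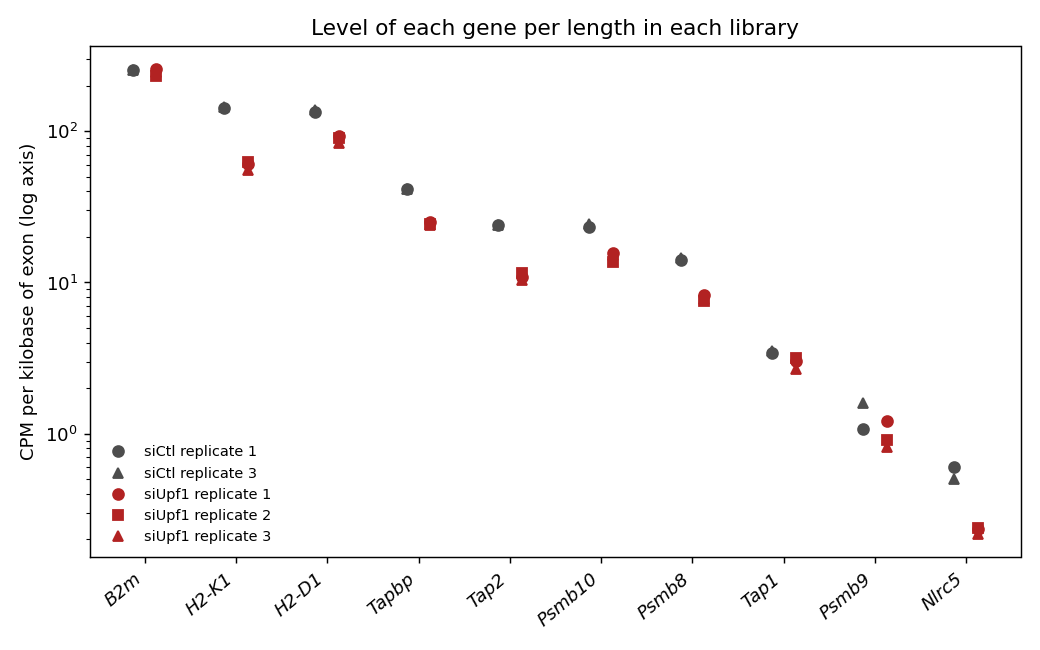
CPM per kilobase of annotated exon (y axis, log scale) of the 10 genes in each siCtl (grey) and siUpf1 (red) library, ordered by the siCtl mean. B2m is highest at 253 and 245 and Nlrc5 lowest at 0.55 and 0.23, and with this length H2-K1 lies below H2-D1 in siUpf1 but not in siCtl.

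Levels of different genes were compared as CPM per kilobase of annotated exon. In siCtl the order was B2m (253 ± 0.946), H2-K1 (144 ± 2.07), H2-D1 (136 ± 2.99), Tapbp (41.4 ± 0.21), Tap2 (24 ± 0.147), Psmb10 (23.9 ± 0.67), Psmb8 (14.3 ± 0.296), Tap1 (3.46 ± 0.055), Psmb9 (1.33 ± 0.368) and Nlrc5 (0.55 ± 0.069). Of the neighbours in this order, only Tap2 and Psmb10 overlapped between libraries. In siUpf1 it was B2m (245 ± 12.4), H2-D1 (89.4 ± 4.79), H2-K1 (59.5 ± 3.35), Tapbp (24.5 ± 0.65), Psmb10 (14.8 ± 1.09), Tap2 (10.9 ± 0.598), Psmb8 (7.83 ± 0.36), Tap1 (2.95 ± 0.259), Psmb9 (0.98 ± 0.21) and Nlrc5 (0.23 ± 0.011), and no neighbours overlapped. On this scale Psmb8 stood below Psmb5 (14.3 against 45.2 in siCtl, 7.83 against 44.2 in siUpf1), and Psmb9 was at 1.33 in siCtl where Psmb6 was at 126. The order depends on the length used. With the length of 1 representative transcript, a choice made after the values were seen, H2-K1 (262) stood above B2m (253) in siCtl, and Tap2 (26.3) stood below Psmb10 (31.1) and Psmb8 (29.7). In siUpf1, H2-K1 (108 ± 6.08) and H2-D1 (110 ± 5.87) were then level within their spread.

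Nlrc5, the regulator that drives class I genes and the only member of the 10 that acts on transcription (ENSMUSG00000074151.13, chromosome 8, 94434356 to 94527272), was scarce and fell further. Its normalised counts were 129 and 107 in siCtl and 48.0, 51.5 and 45.5 in siUpf1. Every siUpf1 library lay far below both siCtl libraries. The log2 fold change was -1.29 (SE 0.271, DESeq2 adjusted p = 9.7e-06), with 40.9% of the siCtl level remaining and a wide 95% interval of 28.3% to 59.2%. The fold change was between -1.42 and -0.91 over the alternatives, the latter with shrinkage.

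Among 12 factors that bind class I promoters or enhancers, 5 were lower and 1 higher. Of all tested genes, 44.9% were called in either direction and 22.9% were lower. The share of this short list called in either direction was near the former, and its share lower was above the latter. Irf1, which activates class I genes downstream of interferon-γ, fell from 872 and 893 normalised counts in siCtl to 519, 546 and 525 in siUpf1 (log2 fold change -0.74, SE 0.094, DESeq2 adjusted p = 6.23e-14). Irf2 (-0.63), the NF-κB subunit Rela (-0.53), the NF-Y subunit Nfyb (-0.46) and Rfx5 (-0.23) were also lower, and Atf1 was higher (0.41). Rfx5, a DNA-binding subunit of the RFX complex, was no longer called with scaling to total counts, with the replicate block or without any library but siUpf1 replicate 3. Rfxank (-0.15) and Rfxap (0.07), its partners, were not called.

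The shares over all tested genes were 44.9% called and 22.9% lower. Of 12 genes of interferon signalling, 5 were lower and 1 higher (median log2 fold change -0.19). Stat2 (-0.69, DESeq2 adjusted p = 2.72e-30), Stat3 (-0.68), Jak2 (-0.40), Irf9 (-0.27) and the feedback inhibitor Socs1 (-0.73) were lower, and the receptor subunit Ifnar1 (0.21) was higher. The calls of Socs1, Irf9 and Ifnar1 were lost with the replicate block and when either siCtl library or siUpf1 replicate 3 was left out, and those of Irf9 and Ifnar1 also without siUpf1 replicate 2. Ifnar1 was lost without siUpf1 replicate 1 as well.

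**Figure D5:**
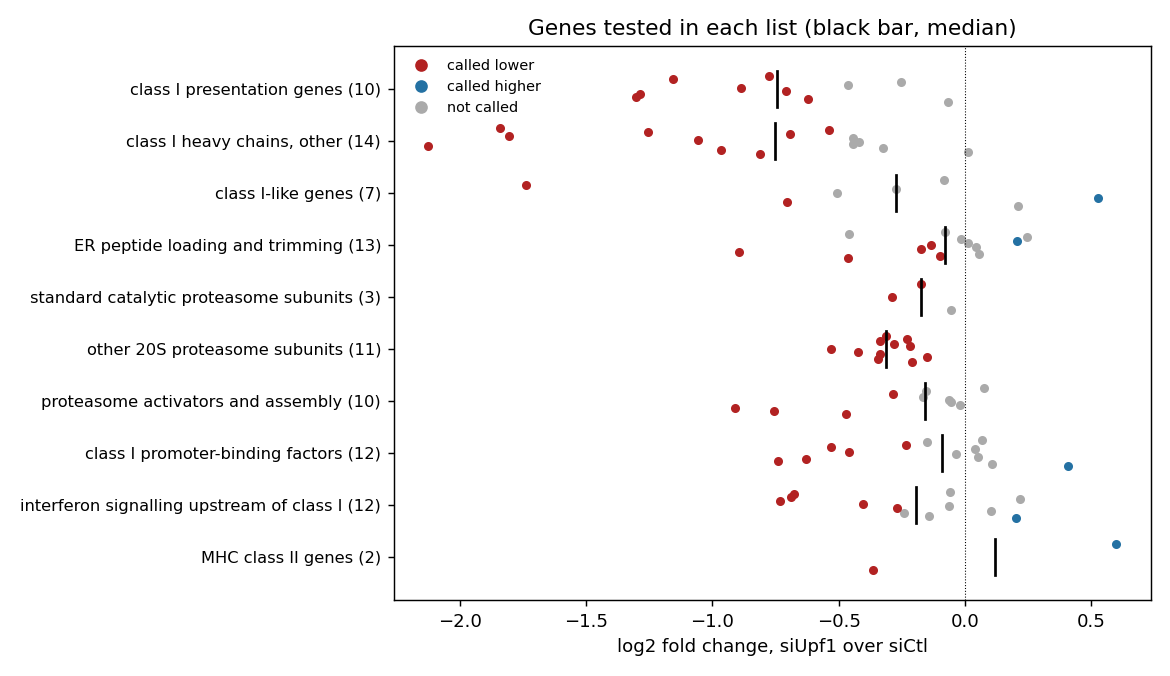
Log2 fold change of siUpf1 over siCtl (x axis) of each tested gene in the class I genes and 9 related lists, with the number tested in parentheses. Red points were called lower, blue higher and grey not called by DESeq2, and the black bar is the median, which is -0.74 for the class I presentation genes and -0.31 for the other 20S subunits.

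Genes related to class I by structure or function gave a mixed picture. Of 7 tested class I-like genes, 2 were lower and 1 higher, beside 44.9% called and 22.9% lower of all tested genes. Procr, a receptor for protein C with a class I fold, fell by 1.74 on the log2 scale (SE 0.118, DESeq2 adjusted p = 6.01e-47), and Fcgrt, the heavy chain of the neonatal Fc receptor, which pairs with β2-microglobulin, was lower by -0.70. H60b, a ligand of the natural killer receptor NKG2D, was higher by 0.53. Fcgrt was not called without siCtl replicate 1, nor H60b without siCtl replicate 3 or with the replicate block. Among 11 MHC class II genes, H2-Aa, H2-Ab1, H2-Eb1 and H2-Eb2 were at 0 in all libraries and only 2 were tested. Cd74, the invariant chain, was lower (-0.36, DESeq2 adjusted p = 2.81e-06), and H2-DMa, which edits class II peptides, was higher (0.60, DESeq2 adjusted p = 0.016), a call lost with the replicate block and without siCtl replicate 1 or siUpf1 replicate 2.

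Position in the genome was compared because 7 of the 10 genes lie on chromosome 17, in the MHC interval from Tapbp to H2-D1 (33915899 to 35267499). Leaving out these 7, 61 tested genes of the interval comprised 14 lower and 11 higher, with a median log2 fold change of -0.09. That share of lower genes was close to the share among all tested genes. Psmb10 and Nlrc5, both on chromosome 8 but more than 10 megabases apart, and B2m on chromosome 2 lie outside the interval.

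Annotated NMD features were counted next. Nlrc5 (1 of 9 transcripts) and Psmb9 (1 of 7) had a transcript annotated as an NMD target, and the other 8 genes had none. Such a transcript was annotated for 28.5% of 12746 tested protein-coding genes, so that 2 of 10 is near the background. The representative 3′ UTRs of the 10 genes measured from 55 nt (Psmb10) to 1197 nt (Nlrc5), beside a median of 984 nt for tested genes, which Nlrc5 and Tapbp (1141 nt) exceeded.

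Motifs known from class I promoters were searched on both strands in the window from 250 bases before to 50 bases after each start site. RefSeq promoters were found for 8 of the 10 genes (not for Tap2 and Nlrc5). They are of the C57BL/6J reference, and their bases in N2A cells were not examined. The core of the interferon-stimulated response element, GAAANNGAA, was in the B2m promoter, 139 bases upstream, and in 8.56% of all promoters (8.42% of those of tested genes). This pattern has GAAA before GAA, and the other order was not searched for. The H2-K1 and H2-D1 windows hold that other order, with the same gap, on the opposite strand. Its share among all promoters was not counted, so a missing match does not show that a response element is absent. The gamma-activated site TTCNNNGAA was in the Psmb8 promoter, 97 bases upstream, and in 8.30% of all promoters (8.26% of those of tested genes). CCAAT was in 6 of the 8 promoters (H2-K1, H2-D1, B2m, Tap1, Tapbp and Psmb9) and in 37.4% of all and 43.3% of those of tested genes. TGACG was in 5 (H2-K1, H2-D1, B2m, Tap1 and Psmb9), in 20.8% of all promoters and in 35% of those of tested genes. The windows of Tap1 and Psmb9 overlap, so their TGACG and CCAAT matches are the same bases. None of the motifs matched in the window of Psmb10, which was lower in siUpf1.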

How the data were processed

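RNA-seq libraries of 5 N2A samples were analysed. The deposited values are raw read counts per gene. According to the paper's methods and the submitters' processing notes, the authors filtered 100-nt single-end reads with fastp, mapped them to GRCm38.p6 with STAR 2.7.0f and counted reverse-strand exon reads with featureCounts (Subread 1.6.4). The counts were neither normalised nor pooled. Exon-union lengths, overlaps and 3′ UTRs came from GENCODE M21 (same build), which held the identifier of 99.8% of the genes, and promoters from RefSeq. Sharing of 100-nt windows was counted between annotated transcripts.

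The test was DESeq2 1.42.0 (R 4.3.3, Wald test on group alone, with its default size factors and filtering, and Benjamini-Hochberg adjustment over 15191 genes), the tool of the study. Alternatives were edgeR 4.0.16 (quasi-likelihood), TMM or total-count scaling, a minimum of 10 counts in 2 libraries, no filter, shrinkage, a replicate block and omission of each library. Scripts were tested on simulated data. Intervals are 1.96 SE. PCR duplicates cannot be recognised in counts, so counting error understates the true error.

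The 10 genes and the 9 pathway and 3 marker lists were chosen with earlier results of these data known. Named genes were Upf1, the 10 genes, called list genes (for lists with over 6 calls, the 3 largest and 3 smallest changes) and listed partners. H2-Q4, H2-Q5, H2-Q7 and H2-T22, some markers, Psme3, Rfxank and Rfxap were named after their values were seen.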

Additional observations from a re-analysis of the deposited data

How the results depend on the processing

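The 7 class I genes called lower kept their calls under all 11 alternatives that give calls, and 0 were called higher. edgeR called 9 lower. The median log2 fold change of the 10 genes was -0.73 with the replicate block, and no scaling or filter shifted the median of all tested genes by more than 0.022. The groups shared only replicate numbers 1 and 3, whose deviations from the group means had correlations of -0.08 and -0.09. As siCtl held only these replicates, their deviations mirror each other, and the correlations are not independent. They cannot decide whether libraries of the same number were paired, and the labels do not say how the cultures were run. With the replicate block 1962 genes were called lower and 1957 higher, in place of 3481 and 3341. Since siUpf1 replicate 2 adds nothing to the comparison under the block, this fit rests on fewer libraries. Calls lost with it therefore cannot be ascribed to pairing. The median heavy chain change was -0.75 gene by gene and -0.94 for the summed counts. The Psmb9 to Psmb6 ratio changed by -0.41 to 0.089 with 1 library left out, the latter, reversed, value without siCtl replicate 3, and the cause was not tested. A siCtl library left alone was assumed to vary like the siUpf1 libraries. Psmb9 and Nlrc5, with at most 155 counts in a library, are limited by depth.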
